A study of Mus musculus with 2 samples.

Results

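The mucus-rich goblet cells of mouse colonic crypts were taken from single-cell RNA sequencing as the barcodes with the highest share of transcripts from 4 mucus genes, Muc2, Fcgbp, Clca1 and Zg16. In each library, barcodes were gated at 5000 or more UMIs (unique molecular identifiers, 1 per captured transcript), 500 or more genes and under 25% mitochondrial UMIs, with Epcam detected and with no UMI of Ptprc, Mki67 or Top2a. The top 10% of the gated barcodes by the summed share of the 4 genes are the members. They numbered 397 of 3969 gated control barcodes and 232 of 2317 gated Mettl14_cKO barcodes, or 629 of 6286 gated barcodes and of 19406 barcodes in all.

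The control library came from C57BL/6 mice aged 4 weeks with the genotype M14(f/f), and the Mettl14_cKO library from M14(f/f);Villin-Cre mice of the same strain and age. M14 is read here as Mettl14, a subunit of the enzyme that writes N6-methyladenosine on RNA. Both genotypes carry the floxed alleles, and Villin-Cre is active in the gut epithelium as a whole, so the deletion is not particular to goblet cells. Cells from 3 mice were pooled for each genotype, which leaves 1 library per group: no difference between the libraries has a replicate check, no test was made, and every 95% interval below covers counting error only.

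Goblet cells are the secretory cells of the intestinal lining that make and release mucus. They assemble the gel-forming mucin Muc2 in the endoplasmic reticulum, decorate it with O-linked sugars in the Golgi, and store it in granules together with partner proteins such as Fcgbp, Clca1, Zg16 and the trefoil peptide Tff3. Their fate is set by the transcription factor Atoh1, and Spdef drives their maturation as they move up the crypt.

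The libraries held 111239295 (control) and 89729527 (Mettl14_cKO) UMIs, and shared 33 barcode sequences. Levels are CPM, the UMIs of a gene per 1000000 UMIs of the set of barcodes. Xist made up 0.0629 and 338 CPM and 4 Y-linked genes together 104 and 0.0780 CPM, so the sex of the mice and the genotype cannot be told apart. Members had a median of 11306 (control) and 13532 (Mettl14_cKO) UMIs, 2806 and 2844 genes, and 3.15% and 4.83% mitochondrial UMIs. As a measure of free RNA, 71 control and 132 Mettl14_cKO T or NK barcodes (no Epcam, Ptprc and at least 2 UMIs of T or NK genes) were summed; their median depths were 1620 and 2146 UMIs.

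The 4 genes chose the members, so their levels are a description. The cut fell at a mucus share of 2.45% of a barcode's UMIs in control and 1.19% in Mettl14_cKO. The last member inside and the first barcode outside had 2.456% and 2.452% (control), and 1.192% and 1.190% (Mettl14_cKO). Within 10% of the cut lay 67 members and 79 other barcodes of the control, and 26 and 32 of the Mettl14_cKO library, so the members are the end of a continuous range. Only 107 Mettl14_cKO barcodes reached the control cut. Summed over the members, the 4 genes took 6.73% (6.71 to 6.76) of control UMIs and 4.68% (4.66 to 4.70) of Mettl14_cKO UMIs, 1.44-fold lower (1.43 to 1.45). In T or NK barcodes the share was 0.0560% and 0.0275%.

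The 4 genes did not share this difference. Muc2, the mucin itself, was at 17577 CPM in control and 7686 CPM in Mettl14_cKO members, 2.29-fold lower (2.26 to 2.32). Zg16, a lectin that binds Gram-positive bacteria, was at 47258 and 36599 CPM, 1.29-fold lower (1.28 to 1.30). Clca1, a secreted metalloprotease of the mucus, was at 1392 and 311 CPM, 4.48-fold lower (4.22 to 4.76), but its log2 ratio of -2.16 turned to 1.92 when the members were ranked by Tff3 plus Agr2 instead. Fcgbp, a large protein of the mucus gel, went the other way, with 1113 and 2201 CPM, 1.98-fold higher (1.91 to 2.04). Muc2 (ENSMUSG00000025515) lies on the plus strand at chr7:141690340-141754693, Fcgbp on the plus strand at chr7:28071236-28120862, Zg16 on the minus strand at chr7:127050156-127087328 and Clca1 on the minus strand at chr3:145003817-145032776 (GENCODE M21, GRCm38).

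The 200 bases before the transcription start are shown for 4 genes. These are Muc2 and Fcgbp, mucus genes of the rule that differed in opposite directions, and Mptx1 and Slpi, which were among the genes furthest apart between the libraries (below). The sequences are from RefSeq (GRCm38.p6), 5′ to 3′ on the strand of the gene. Capitals mark matches to the TATA box TATAAA or the E-box CAGCTG on either strand. The forkhead core TGTTTA was searched as well.
Muc2, chr7:141690140-141690339, plus strand: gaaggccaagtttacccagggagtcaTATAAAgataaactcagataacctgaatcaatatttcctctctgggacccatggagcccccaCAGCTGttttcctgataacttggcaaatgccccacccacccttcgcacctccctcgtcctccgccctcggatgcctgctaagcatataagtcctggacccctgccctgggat
Fcgbp, chr7:28071036-28071235, plus strand: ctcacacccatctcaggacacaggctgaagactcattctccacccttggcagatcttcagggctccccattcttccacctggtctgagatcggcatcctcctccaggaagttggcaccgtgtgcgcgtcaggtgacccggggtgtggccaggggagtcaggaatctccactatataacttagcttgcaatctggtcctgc
Mptx1, chr1:174330318-174330517, plus strand: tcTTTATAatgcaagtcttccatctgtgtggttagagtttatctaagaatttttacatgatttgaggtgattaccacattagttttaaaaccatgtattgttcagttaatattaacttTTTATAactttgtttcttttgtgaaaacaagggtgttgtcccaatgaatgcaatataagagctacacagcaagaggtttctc
Slpi, chr2:164356508-164356707, minus strand: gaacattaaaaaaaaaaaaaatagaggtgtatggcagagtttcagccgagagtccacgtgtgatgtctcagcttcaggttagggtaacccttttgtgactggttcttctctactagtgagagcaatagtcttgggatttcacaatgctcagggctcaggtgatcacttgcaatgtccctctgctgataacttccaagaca

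Muc2 held 1 match to TATAAA, starting 174 bases before the start, and 1 to CAGCTG, 112 bases before it. Mptx1 held 2 matches to TATAAA, both on the opposite strand, 198 and 82 bases before the start. Fcgbp and Slpi held no match, and none of the 4 held TGTTTA. Only exact letters were searched, so near matches such as tataag in Muc2 and Mptx1 and tataac in Fcgbp are not marked. Of 32851 RefSeq windows of the same length, 10.0% held TATAAA, 9.5% TGTTTA and 10.9% CAGCTG. A match describes letters only. The promoter source used here held no sequence for Zg16 or Clca1, so theirs are not shown.

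The members were of 2 kinds, and the name of mature goblet cells fits one of them. At 0.5% of a barcode's UMIs from Zg16, a value chosen after the data were seen, the control members fell into 212 with high Zg16 (53.4%, 48.4 to 58.4) and 185 with low Zg16. The Mettl14_cKO members fell into 141 (60.8%, 54.2 to 67.1) and 91. Between 0.25 and 1% lay 3 control and 24 Mettl14_cKO members. Of all gated barcodes, 69 lay there in each library, so the emptier gap of the control holds for members only. The mucus share cut was higher in the control (2.45% against 1.19%), and its part in this gap was not tested. Among all gated barcodes, 272 (6.85%, 6.09 to 7.68) and 157 (6.78%, 5.79 to 7.88) had high Zg16, so that the share of such barcodes differed by less than counting error.

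**Figure D1:**
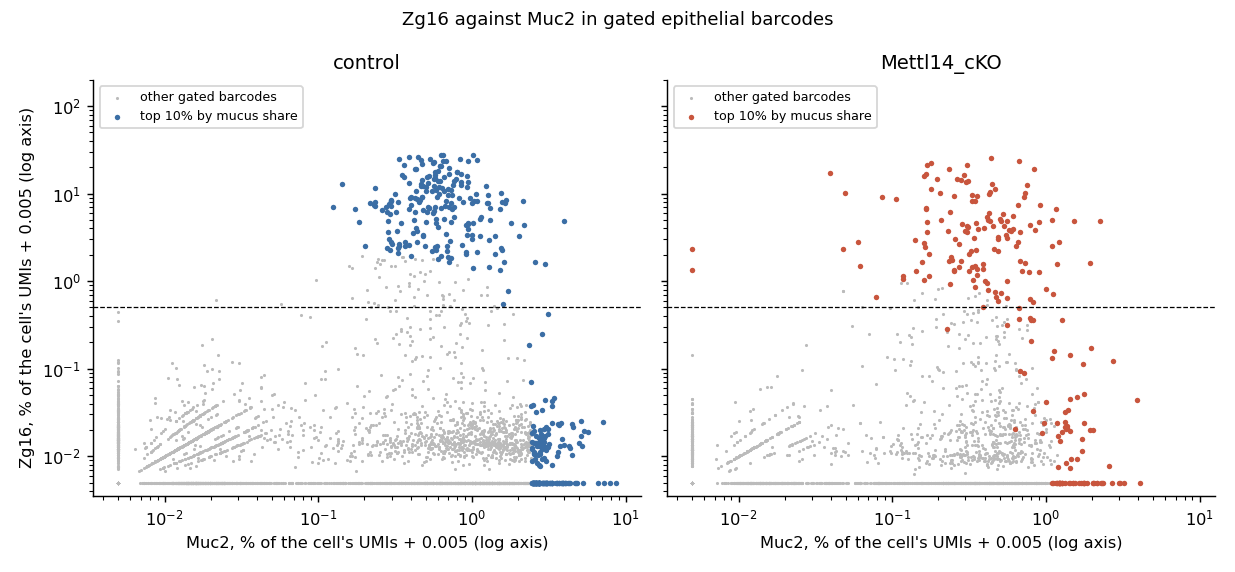
Each point is a gated barcode of the control (left) or Mettl14_cKO library (right), by its Muc2 and Zg16 UMIs in percent of all its UMIs, each plus 0.005, on log axes; coloured points are the top 10% by mucus share and the dashed line marks Zg16 at 0.5%. Above the line lie 212 and 141 members and below it 185 and 91. Between 0.25 and 1% Zg16 lie 3 control and 24 Mettl14_cKO members, but 69 gated barcodes in each library. The gap thus describes members under each library's cut.

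Control Zg16-low members were chosen by Muc2 alone: it made up 99.6% of their mucus UMIs, and its median was 2.86% of a barcode's UMIs against 0.593% in Zg16-high members. Their other mucus genes had a CPM near or below that of control T or NK barcodes. Zg16 stood at 107 CPM in them and 252 CPM in control T or NK barcodes, Clca1 at 11.2 and 14, Fcgbp at 14.7 and 14, and Tff3 at 54.8 and 42.0. The T or NK barcodes were shallower (median 1620 against 11133 UMIs), so a like CPM means more UMIs per barcode in the members. Whether free RNA accounts for these levels was not tested. Of the 185 members, 100 had no Zg16 UMI, 176 no Clca1 UMI and 158 no Fcgbp UMI. Some other goblet genes were at or above the level of Zg16-high members: Agr2, the disulfide isomerase needed for Muc2 assembly, at 28518 CPM (18828 in Zg16-high members), Spink4 at 27950 (16759) and Atoh1 at 316 (241). Spdef was at 431 CPM against 117 CPM. The secreted products split. Of 18 at 50 CPM or more, 7 were at least 2-fold higher and 4 at least 2-fold lower in Zg16-high than in Zg16-low control members. Of all genes compared, 6.57% were higher and 10.7% lower. The median log2 ratio of the list was 0.42, against -0.18 over all genes. Sval1 was at 13950 CPM in Zg16-high and 1447 CPM in Zg16-low members, while Retnlb was at 902 and 3233 CPM. Control Zg16-low members are therefore Muc2-rich barcodes of the goblet lineage with little of the other 3 mucus genes of the rule, and are called by that measure only.

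In the Mettl14_cKO library, where the cut was lower, the Zg16-low members were less distinct. Muc2 made up 90.3% of their mucus UMIs. Tff3 stood at 5922 CPM in them, Fcgbp at 1036 and Zg16 at 595 CPM, against 165, 18.3 and 81.0 CPM in T or NK barcodes of that library. In the 73 of them with Zg16 under 0.05%, Tff3 was still at 3246 CPM, with quartiles over barcodes of 47.5 and 8762 CPM, and Fcgbp at 376 CPM. The corresponding 181 control members had 55.2 and 13.2 CPM. The 91 Zg16-low Mettl14_cKO members had a median of 8772 UMIs and 7.71% mitochondrial UMIs, against 15743 and 3.89% in the Zg16-high members of that library; in the control the medians were 11133 and 3.39% against 11457.5 and 2.86%. The part of depth and mitochondrial share in these levels was not tested.

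Genes other than those of the rule separated the 2 kinds in the same direction in both libraries. Of 2164 genes that could be compared in both, 76 (3.51%) were at least 2-fold higher and 110 (5.08%) at least 2-fold lower in Zg16-high members of each library. Among the genes with the highest ratio in Zg16-high members, Sprr1a, a cornified envelope protein, was at 458 CPM in Zg16-high and 12.1 CPM in Zg16-low control members, and at 168 and 6.09 CPM in those of Mettl14_cKO. Krt20, a keratin of differentiated intestinal cells, was at 84.5 and 7.77 CPM, and at 83.1 and 9.13 CPM. Lgals3, a galectin, was at 1913 and 142 CPM, and at 2138 and 266 CPM. Saa1, an acute-phase protein, Sprr2a3, Hsd17b2, S100a10, Id1, the water channel Aqp4 and the inhibitor Slpi stood at the same end.

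Zg16-low members led in a different set. Dlk1, a membrane protein related to Notch ligands, was at 665 CPM in Zg16-low and 16.1 CPM in Zg16-high control members, and at 1017 and 20.5 CPM in those of Mettl14_cKO. Meg3, a noncoding RNA of the same imprinted domain, was at 876 and 53.3 CPM, and at 987 and 62.9 CPM. In Mettl14_cKO these sums rest on a minority of barcodes: 69 of the 91 Zg16-low members had no Dlk1 UMI and 54 no Meg3 UMI. Of the 185 control Zg16-low members, 117 had no Dlk1 UMI and 28 no Meg3 UMI. Sox9, a transcription factor of the lower crypt, was at 141 and 27.1 CPM, and at 121 and 23.8 CPM. A4gnt, which adds the terminal N-acetylglucosamine of some mucin sugars, Wfdc18, Hopx, Mt3 and the water channel Aqp1 also stood there. Genes of glycan building followed: of the mucin glycosylation enzymes, 16 of 27 (control) and 10 of 26 (Mettl14_cKO) were at least 2-fold lower in Zg16-high members. Of all genes compared, 175 of 2663 (6.57%) were higher and 286 (10.7%) lower in the control, with 131 of 2356 (5.56%) and 174 (7.39%) for Mettl14_cKO. The median log2 ratio of that list was -1.15 and -0.74, against -0.18 and -0.07 over all genes. Of the secretory transcription factors, 7 of 12 and 6 of 12 were lower, among them Spdef, Creb3l1, Creb3l4, Sox9 and Foxa1 in both, while Klf4 and Mxd1 were higher.

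Among Zg16-high members the shares of the mucus genes were compared barcode by barcode. Across the 212 control barcodes, Spearman's rho of the shares was 0.70 for Zg16 with Clca1, 0.64 with Fcgbp, 0.65 with Tff3 and -0.09 with Muc2. Across the 141 Mettl14_cKO barcodes the same values were 0.37, 0.31, 0.28 and -0.07. Fcgbp with Tff3 gave 0.62 and 0.66. These are descriptions over barcodes of 1 library each, which share its depth and its denominator, and every pair holds at least 1 gene of the rule, which with the Zg16 cut shapes these values.

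Members were compared with the other gated barcodes of the same library, on CPM without the UMIs of the 4 rule genes. As sums, members were higher in Tff3 and several granule genes. They were lower in most hormone genes and some genes of absorptive cells. This describes the cells chosen and is no test. In the control, 101 of 2638 genes (3.83%) were at least 2-fold higher and 128 (4.85%) at least 2-fold lower in members; in the Mettl14_cKO library 54 of 2475 (2.18%) were higher and 79 (3.19%) lower. In both libraries 30 of 2182 genes (1.37%) were higher and 20 (0.917%) lower.

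Ranked by the lower of their 2 ratios, Tff3 came first. Control members had 2243 CPM against 193 CPM in other gated barcodes, 11.6-fold, and Mettl14_cKO members 12264 against 2084 CPM, 5.89-fold. Sval1, a seminal vesicle antigen-like secreted protein, was at 9098 and 1077 CPM, and at 2251 and 717 CPM. Spink1, a trypsin inhibitor, was at 2842 and 79.4 CPM in control but at 26775 and 9486 CPM in Mettl14_cKO, so its margin was 35.8-fold in one and 2.82-fold in the other. Sytl2, an effector of Rab27 in granule docking, was 3.77-fold and 3.25-fold higher, and Sycn, a granule membrane protein first known from the pancreas, 3.00-fold and 3.01-fold. Dlk1, Meg3, Bcas1, Gm1123, Nupr1, Nov and Slpi completed the 12 with the highest ratio in both. These sums mix the 2 kinds of member. On CPM of all UMIs, control Zg16-high members had Dlk1 at 16.1 and Meg3 at 53.3 CPM, below the others (76.4 and 156 CPM). In Mettl14_cKO Dlk1 was at 20.5 against 50.9 CPM and Meg3 at 62.9 against 53.5 CPM. Tff3 was at 54.8 CPM in control Zg16-low members, below the others, but at 5922 CPM in those of Mettl14_cKO, above the others. Among the lowest were the hormones Pyy and Gcg, the granins Chgb and Chga and the cytochrome Cyp2c55. Pyy was at 11.9 CPM in members and 826 CPM in the others of the control, and at 18.4 and 3244 CPM for Mettl14_cKO. Of 6 enteroendocrine markers at 50 CPM or more in the control, 5 were lower and 1, the hormone Sct, was higher. In Mettl14_cKO 6 of 7 were lower and none higher. Of all genes 4.85% and 3.19% were lower.

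Genes that set the goblet lineage were higher in members as a list, but by less than 2-fold. Atoh1 was at 294 and 149 CPM in members and others of the control, 1.98-fold higher, and at 307 and 180 CPM, 1.71-fold higher, in the Mettl14_cKO library. None of the 12 (control) or 10 (Mettl14_cKO) secretory transcription factors at 50 CPM or more reached 2-fold. Only 3.83% and 2.18% of all genes were at least 2-fold higher. The median log2 ratios of the factors were 0.58 and 0.42, against 0.01 and -0.16 over all genes. When the gated barcodes were ordered by mucus share in 10 equal groups, Agr2 was at 15855 and 11427 CPM already in the fifth group and at 24755 and 21095 CPM in the tenth, which holds 396 and 231 of the members; in the ninth it was at 29587 and 24495 CPM. Spdef was at 381 CPM in the ninth and 272 CPM in the tenth group of the control. Tff3 instead went from 179 to 2246 CPM between these groups of control barcodes and from 5293 to 12224 CPM between those of Mettl14_cKO.

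**Figure D2:**
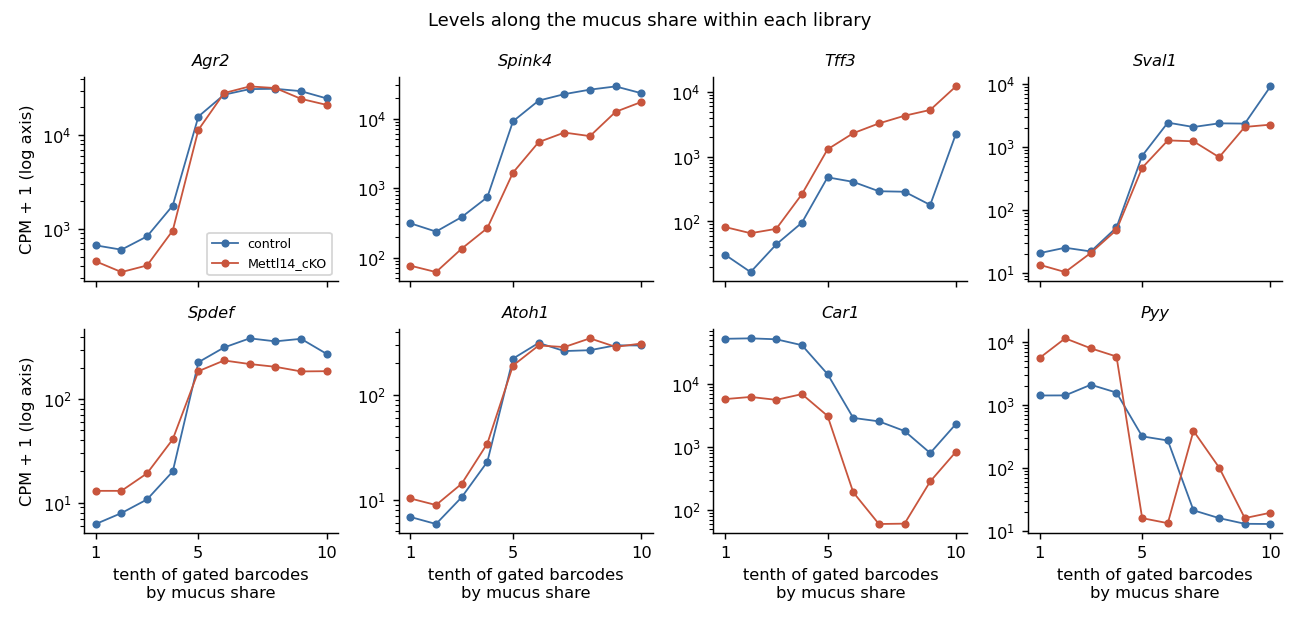
CPM + 1 (log axis, without the UMIs of the 4 rule genes in the denominator) of 8 genes in 10 equal groups of gated barcodes ordered by mucus share, with blue for control and red for Mettl14_cKO. Agr2 and Atoh1 reach their level by the sixth group, while Tff3 is highest in the tenth group of both libraries (2246 and 12224 CPM), and the colonocyte gene Car1 is lowest in the ninth control group and the seventh Mettl14_cKO group (800 and 58.4 CPM).

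The main question of the design is how the same kind of cell differs when Mettl14 is deleted in the epithelium. Mettl14 itself gave 25 UMIs (4.72 CPM, 3.05 to 6.96) in control and 12 UMIs (3.00 CPM, 1.55 to 5.24) in Mettl14_cKO members. The intervals overlap, and the sources used here give neither the floxed exons nor the sequenced end of the transcript, so this count does not check the deletion. Of 2487 genes with 50 CPM or more in 1 library, 113 (4.54%) were at least 2-fold higher and 192 (7.72%) at least 2-fold lower in Mettl14_cKO members. The median log2 ratio of all of them was -0.21. Of the 113 higher genes, 112 were also at least 2-fold higher in the Zg16-high members and 44 in the Zg16-low members. For the 192 lower genes the counts were 175 and 97. Each kind is part of the sums it is set against, so some of this overlap is built in. Zg16-high members gave 2983908 of the 5300513 control UMIs and 2684799 of the 3999110 Mettl14_cKO UMIs. The kinds taken alone gave 196 of 2429 genes (8.07%) higher and 251 (10.3%) lower in Zg16-high members, and 46 of 2583 (1.78%) higher and 141 (5.46%) lower in Zg16-low members. In the gated barcodes outside the members, where 212 of 2682 genes (7.90%) were higher and 220 (8.20%) lower, 86 of the 113 and 108 of the 192 passed the same fold in the same direction.

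Secreted goblet products split. Of the 16 at 50 CPM or more, 2 were at least 2-fold higher and 9 lower, with a median log2 ratio of -1.25. Over all genes 4.54% were higher and 7.72% lower, with a median of -0.21. Tff3 was at 2092 CPM in control and 11690 CPM in Mettl14_cKO members, 5.59-fold higher (5.47 to 5.71). Retnlb, an antibacterial resistin-like protein of goblet cells, was at 1921 and 11219 CPM, 5.84-fold higher (5.72 to 5.97). Both were higher in each kind of member: Tff3 was at 3673 and 14514 CPM in Zg16-high and at 54.8 and 5922 CPM in Zg16-low members, and Retnlb at 902 and 9187, and at 3233 and 15369 CPM. The medians over barcodes show the same order for Tff3, with 2927 CPM in Zg16-high control and 16439 CPM in Zg16-high Mettl14_cKO members.

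Mptx1, a mucosal pentraxin, was the lowest of all. It was at 5667 CPM (30038 UMIs) in control and 11 CPM (44 UMIs) in Mettl14_cKO members, 515-fold lower (384 to 709). In Zg16-high members it was at 9961 and 13.8 CPM, in Zg16-low members at 136 and 5.33 CPM. Control T or NK barcodes, which were shallower, held 105 CPM, near the control Zg16-low level. Mettl14_cKO T or NK barcodes held 5.23 CPM. The control level was uneven: the median Zg16-high member had 3568 CPM and the upper quartile 15374 CPM.

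Other secreted products that were lower included Klk1, tissue kallikrein, a serine protease, at 7183 and 1209 CPM, 5.94-fold lower (5.77 to 6.13). Sval1 was at 8486 and 2145 CPM, 3.96-fold lower (3.86 to 4.05); its log2 ratio, -1.98, turned to 0.63 when barcodes were ranked by Tff3 plus Agr2 instead of the 4 mucus genes. The chemokine Ccl6 was at 1622 and 631 CPM, the hormone precursor Guca2a (guanylin) at 634 and 181 CPM, and Ang4, an antibacterial ribonuclease, at 93.6 and 23.3 CPM. Wfdc2, Lrrc26 and Dmbt1 made up the 9. Wfdc2 was lower in Zg16-high members alone, at 570 and 95.4 CPM there and at 259 and 317 CPM in Zg16-low members; the difference between the kinds was not tested. Agr2 was at 23063 and 20166 CPM as a sum over the members, but its median over barcodes was 21431 CPM in control and 11038 CPM in Mettl14_cKO members. Spink4 was at 21650 and 16426 CPM over all members, but at 16759 and 6852 CPM in Zg16-high and 27950 and 35983 CPM in Zg16-low members, so the direction of the sums differed by kind. The medians over barcodes were lower in both kinds, at 16275 (control) and 1065 CPM (Mettl14_cKO) in Zg16-high and 22653 and 12084 CPM in Zg16-low members, so the higher sum of Spink4 in Zg16-low members rests on the upper part of its barcodes.

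**Figure D3:**
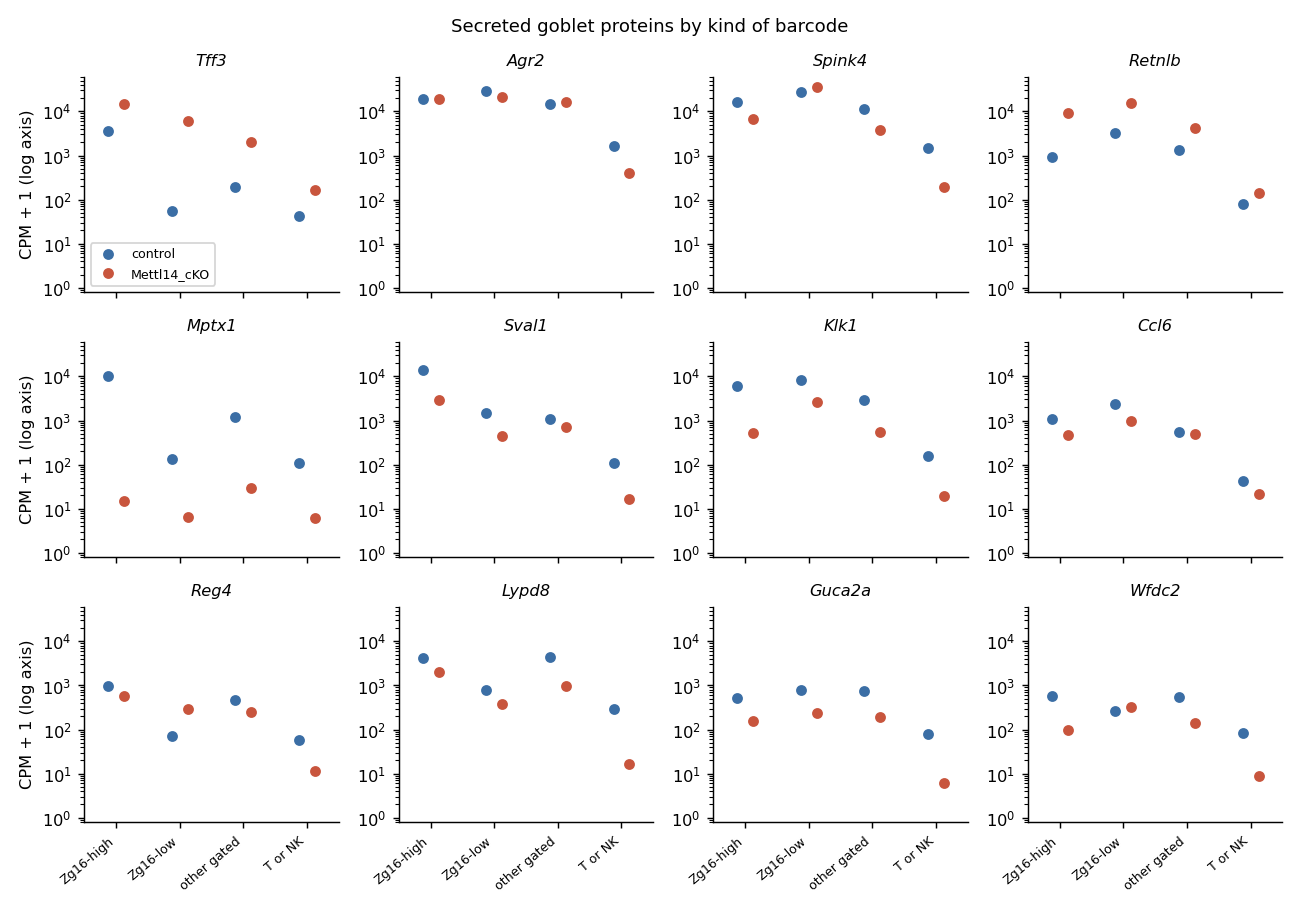
CPM + 1 (log axis) of 12 secreted goblet products in Zg16-high members, Zg16-low members, other gated barcodes and T or NK barcodes of the control (blue) and Mettl14_cKO (red) libraries, each point the sum over 1 set of barcodes. Tff3 and Retnlb are higher in Mettl14_cKO in every set (Tff3 5922 against 54.8 CPM in Zg16-low members). Mptx1, Klk1 and Sval1 are lower in every set. Agr2 is at 18828 (control) and 19599 CPM (Mettl14_cKO) in Zg16-high members and at 28518 and 21324 CPM in Zg16-low members.

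Among other mucins and trefoil factors, the membrane mucin Muc13 was at 550 and 514 CPM and Muc4 at 82.6 and 115 CPM. Muc1 was at 26.0 and 62.5 CPM, 2.40-fold higher (1.94 to 2.98), and Muc3, a membrane mucin of absorptive cells, at 156 and 31.0 CPM, 5.03-fold lower (4.16 to 6.13). Including Tff3, 2 of the 6 at 50 CPM or more were higher and 1 lower (4.54% and 7.72% of all genes).

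The factors that set goblet fate had a median log2 ratio of -0.56, below that of all genes (-0.21). Atoh1 was at 274 CPM in control and 293 CPM in Mettl14_cKO members, a ratio of 1.07 (0.990 to 1.16) whose interval includes 1, and Spdef was at 254 and 176 CPM. Foxa3 was at 249 and 234 CPM. Of 12 factors at 50 CPM or more none was 2-fold higher and 2 were lower (4.54% and 7.72% of all genes). Both are of the membrane-bound CREB family that raises secretory capacity. Creb3l1 was at 192 and 89.8 CPM, 2.14-fold lower (1.90 to 2.42), and Creb3l4 at 127 and 48.0 CPM, 2.65-fold lower (2.26 to 3.13). The stress-response factor Xbp1 was at 357 and 224 CPM.

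The machinery that builds mucin was near the median of all genes, of which 4.54% were higher and 7.72% lower. None of the 21 mucin glycosylation enzymes was 2-fold higher and 2 were lower, B3gnt7, which extends sugar chains (114 and 41.5 CPM, 2.75-fold lower, 2.31 to 3.28), and the sialyltransferase St3gal6 (151 and 51.3 CPM, 2.95-fold lower, 2.53 to 3.46). C1galt1c1, the chaperone of the core 1 enzyme, was at 288 and 316 CPM and the core-branching enzyme Gcnt3 at 268 and 321 CPM. The median log2 ratio of the list was -0.15. None of 18 genes of sugar nucleotide and sulfate supply and none of 31 genes of translocation and folding in the endoplasmic reticulum reached 2-fold in either direction, with medians of -0.33 and -0.19. Hspa5 (BiP), the main chaperone there, was at 748 and 1220 CPM, and P4hb, a disulfide isomerase, at 273 and 503 CPM. Of 8 genes of the unfolded protein response, 2 were lower: the factor Ddit3 (CHOP), at 114 and 33.0 CPM, and Herpud1, at 594 and 266 CPM. This list had a median of -0.72, below the -0.21 of all genes. Of 11 exocytosis genes 1 was lower, near the share over all genes (7.72%). It was the actin-severing protein Scin, at 97.2 and 37.8 CPM. Its log2 ratio of -1.34 turned to 0.55 under the Tff3 plus Agr2 ranking. The docking GTPase Rab27b was at 172 and 143 CPM and the granule SNARE Vamp8 at 247 and 402 CPM.

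Best2, a chloride and bicarbonate channel known from colonic goblet cells, was at 144 CPM in control and 21.8 CPM in Mettl14_cKO members, 6.60-fold lower (5.28 to 8.34); under the Tff3 plus Agr2 ranking its log2 ratio, -2.67, became 0.05. It lay in Zg16-high members, at 244 and 31.3 CPM, against 13.8 and 2.28 CPM in Zg16-low members. The other transport genes at 50 CPM or more, 4 of 5, stayed within 2-fold, such as the sodium pump subunit Atp1b1 at 504 and 497 CPM and the chloride importer Slc12a2 at 158 and 181 CPM.

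Some secreted protease inhibitors and most of the antimicrobial and acute-phase genes were higher. Of 10 inhibitors, 3 were higher and 1 lower, with a median log2 ratio of 0.56. Over all genes the shares were 4.54% and 7.72% and the median -0.21. Spink1 was at 2651 CPM in control and 25522 CPM in Mettl14_cKO members, 9.63-fold higher (9.46 to 9.80), and its median over barcodes was 444 and 14516 CPM. Slpi, an inhibitor of leukocyte elastase, was at 65.7 and 2479 CPM, 37.8-fold higher (33.9 to 42.1). It was carried by few barcodes: the 6 highest Mettl14_cKO members held 47.9% of its UMIs, and the median member had none. Serpina10 was at 0.943 and 50.5 CPM, 53.5-fold higher (22.6 to 167).

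Of 10 antimicrobial and acute-phase genes, 6 were higher and 1, Ang4, was lower, with a median of 1.58. Over all genes 4.54% were higher and 7.72% lower, with a median of -0.21. Reg3g, an antibacterial lectin, was at 192 and 1571 CPM, 8.16-fold higher (7.64 to 8.73), and Reg3b at 310 and 911 CPM, with 72.9% of the Mettl14_cKO UMIs in 6 members. Chit1, a chitinase, gave no UMI in control and 401 UMIs (100 CPM) in Mettl14_cKO members, at least 177-fold higher when the control members together are set to the floor of 3 counts. Lrg1, an acute-phase glycoprotein, was at 2.45 and 95 CPM, 38.7-fold higher (22.4 to 73.4), with UMIs in 52 of 232 Mettl14_cKO members. Pglyrp1, a peptidoglycan-binding protein, was at 2315 and 1216 CPM, and Pigr, which carries IgA into the lumen, at 940 and 972 CPM.

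Part of the antigen presentation and interferon genes and most immediate early genes were lower. Over all genes 7.72% were lower and 4.54% higher, with a median of -0.21. Of 7 genes of MHC class I and peptide loading, 4 were lower and none higher, with a median of -1.34. B2m, the light chain of class I, was at 636 and 110 CPM, 5.79-fold lower (5.24 to 6.41), and at 456 and 93.5 CPM in Zg16-high and 868 and 143 CPM in Zg16-low members. Psmb9, an immunoproteasome subunit, was at 67.9 and 8 CPM. Of 7 interferon response genes 4 were lower, among them Ifi27 at 169 and 25.5 CPM and Bst2 at 191 and 41.8 CPM, with a median of -1.43. Of 6 TNF and NF-kB targets 5 were lower, such as Cxcl2 at 153 and 46.0 CPM, and the chemokine Ccl20 was higher, at 19.2 and 203 CPM, 10.6-fold (8.59 to 13.1), with 71.0% of its Mettl14_cKO UMIs in 6 members. Of 11 immediate early and heat shock genes, 8 were lower and none higher. Atf3 was at 1724 and 299 CPM, 5.78-fold lower (5.44 to 6.14), and Fos at 1533 and 498 CPM. In the other gated barcodes 5 of 7 class I, 7 of 8 interferon and 5 of 11 immediate early genes were lower too. So were 3 of 5 TNF and NF-kB targets there, and 8.20% of all genes. These differences are thus not particular to the members.

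**Figure D4:**
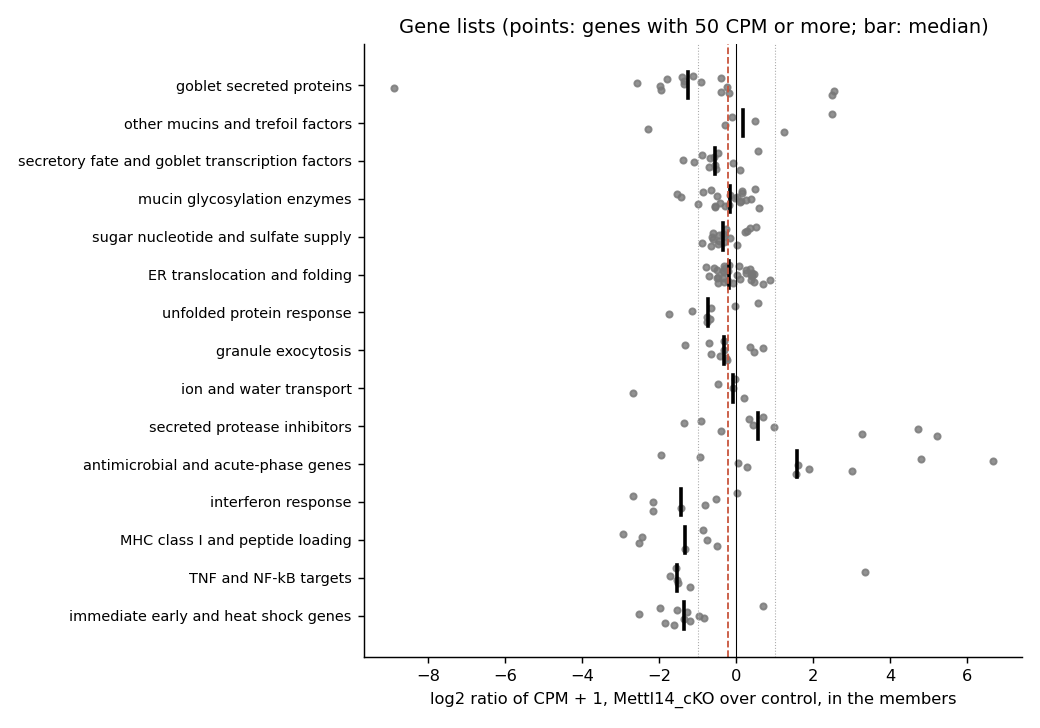
Log2 ratio of CPM + 1, Mettl14_cKO over control, in the members for each gene at 50 CPM or more (grey points) of 15 lists, with a black bar at each list's median, a red dashed line at the median of all genes (-0.21) and dotted lines at 2-fold. Lists of glycosylation and folding lie at that median, antimicrobial genes above it (1.58), and interferon, class I and immediate early genes below it (-1.43, -1.34 and -1.35).

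The genes furthest apart were Akr1c21, Chit1, Lce3b, Slpi, Lrg1, Serpina10, 2010109I03Rik, Mt2, Ccl20, Ldhb, Spink1 and Capg on the higher side. Akr1c21, a hydroxysteroid dehydrogenase, was at 0.377 and 239 CPM, 633-fold higher (175 to 5234), and at 0.523 and 267 CPM in other gated barcodes. It had UMIs in 72 of 232 Mettl14_cKO members, and 6 members held 48.4% of them. Mt2, a metallothionein, was at 9.81 and 142 CPM, 14.5-fold higher (10.9 to 19.6), and the actin-capping protein Capg at 21.9 and 208 CPM. Lce3b rested on 1 barcode, which held 203 of its 204 UMIs, and 57.6% of 2010109I03Rik UMIs came from 1 barcode.

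On the lower side stood Mptx1, Gsdmc4, Hao2, Gm5485, Flrt3, Sult1a1, Psmb9, Cxcl10, Selenbp1, Ifi27, Best2 and Klk1. Gsdmc4, a gasdermin, was at 121 and 6.25 CPM, 19.3-fold lower (13.0 to 30.1), and it was at 209 and 8.94 CPM in Zg16-high members against 6.91 and 0.761 CPM in Zg16-low members. In other gated barcodes it was at 347 and 13.1 CPM. Hao2, a hydroxyacid oxidase, was at 119 and 6.50 CPM, 18.4-fold lower (12.4 to 28.3), and at 353 and 14.4 CPM in the others. Flrt3, a cell adhesion protein, was at 92.1 and 9.5 CPM, and the chemokine Cxcl10 at 95.3 and 13.0 CPM.

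**Figure D5:**
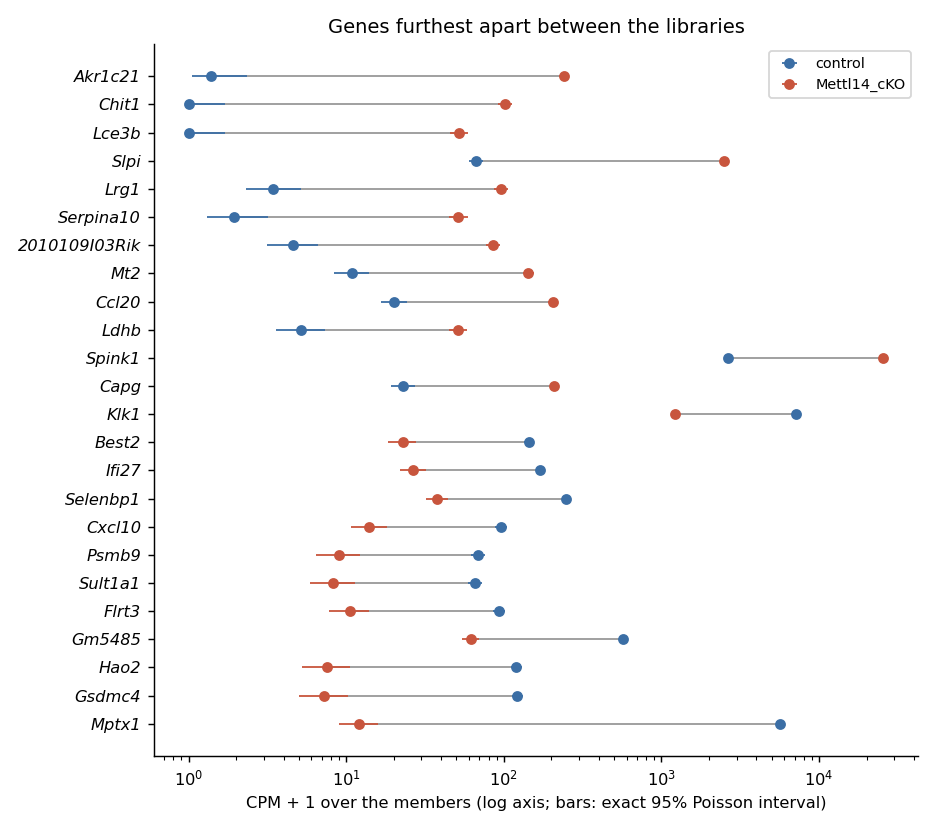
CPM + 1 (log axis) summed over the members of the control (blue) and Mettl14_cKO (red) libraries for the 12 genes with the highest and the 12 with the lowest ratio, with exact 95% Poisson intervals that cover counting error only. Mptx1 spans the widest range, from 5667 to 11 CPM, and Spink1 and Slpi are the most abundant of the higher genes (25522 and 2479 CPM).

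Markers of other cell types were also measured in the members, and single barcodes held most UMIs of some of them. Colonocyte markers summed to 2563 CPM in control and 1070 CPM in Mettl14_cKO members, mostly Car1, with 65.7% of its control UMIs in 6 members; their median share was 0.0618% and 0.0189% in Zg16-high members and 0.0379% and 0.00489% in Zg16-low members. Enteroendocrine markers summed to 262 and 485 CPM, with Neurog3 at 0 and Neurod1 at 0 and 0.25 CPM, and 193 of the 205 Chga UMIs of Mettl14_cKO members came from 1 barcode. The hormone Pyy was spread more widely, with UMIs in 50 of 397 control and 53 of 232 Mettl14_cKO members. Deep crypt secretory markers, which include Reg4 and Kit, summed to 1386 and 1129 CPM. T or NK markers summed to 37.5 and 1.75 CPM, myeloid markers to 37.5 and 50.3 CPM with Lyz2 at 0, tuft markers to 6.04 and 23.8 CPM, and stromal markers to 0.566 and 4.25 CPM. B or plasma markers summed to 0.189 and 673 CPM, and 1 Mettl14_cKO member held 1391 of 1400 Igha UMIs. More than 1% of UMIs came from such markers or from blood genes in 13 control and 12 Mettl14_cKO members. Without those members 110 genes were higher and 196 lower, of which 105 and 188 were among the 113 and 192.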

How the data were processed

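The authors deposited raw counts of UMIs per gene and barcode for 1 library per genotype, made with Cell Ranger (3.0.0 per the submitters' processing notes, 3.1.0 per the file headers); Seurat 3 is listed too. Build, annotation and kit were not given in the sources used here; 99.9% of 31053 gene IDs occur in GENCODE M21. Here, counts were summed by symbol and over each set of barcodes and scaled to CPM (per 1000000 UMIs of the set). Sizes are log2 ratios of CPM plus 1, called at 2-fold among genes with 50 CPM in 1 library and 10 UMIs; left out were rule genes, Xist, Tsix, genes of the Y chromosome, mitochondria, ribosome, haemoglobin, immunoglobulins and T cell receptors, and genes over 5 times higher in Ptprc-positive, Epcam-negative barcodes. Intervals (95%) are exact Poisson or binomial. Genes were named from the 12 highest and lowest ratios that kept their sign with barcodes thinned to 5000 UMIs and weighted equally, the 12 highest and 6 lowest members over others, and for each list its 3 most abundant and 2 most extreme genes; other names were chosen after their values were seen, and not every gene the rule names is reported here. Members and lists were chosen with earlier results of these data known. Doublets were scored with Scrublet (scanpy 1.11.5) and removed only as an alternative. Scripts used pandas 2.3.3, scipy 1.17.1 and numpy 2.4.6 under Python 3.11.15 and were tested on simulated counts.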

Additional observations from a re-analysis of the deposited data

Results flagged for a closer look

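A difference between members and other gated barcodes that pointed in opposite directions in the 2 libraries drew attention to 2 genes; with 1 library each, the difference was not tested. Fabp5, a fatty acid binding protein, had a log2 ratio of members over other gated barcodes of 1.15 for control and -3.24 for Mettl14_cKO barcodes. Sprr1a had 1.58 and -1.14.

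Immunoglobulin genes were left out of the comparisons, and no control member gave an Igha UMI. In Mettl14_cKO members Igha gave 1400 UMIs and Igkc 5181 UMIs, of which 1 barcode held 1391 and 5148.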

How the results depend on the processing

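No paired analysis was possible because each genotype has 1 library, and no library could be left out. The log2 ratio of the mucus share, -0.53, was -0.64 with the top 20%, -0.67 with the higher UMI minimum, -0.64 with a mitochondrial limit of 10%, -0.51 without Scrublet doublets, -0.28 when barcodes were ranked by Tff3 plus Agr2, -0.63 thinned to 5000 UMIs, -0.62 with barcodes weighted equally and -0.51 with background subtracted. It turned to 0.23 when the control cut was used in both libraries, which keeps only barcodes above that cut.

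The 113 higher genes became 209 with the Tff3 plus Agr2 ranking, 196 in Zg16-high and 46 in Zg16-low members, 340 at 10 CPM and 28 at 200 CPM. The 192 lower genes became 327 with the control cut, 296 with background subtracted, 525 at 10 CPM and 66 at 200 CPM. Higher calls were 37.0% of all calls, and 26.7%, 50.6% and 24.6% with the control cut, the Tff3 plus Agr2 ranking and Zg16-low members. Genes higher in members than in others, 101 in the control, became 182 with the top 20%, 210 with the Tff3 plus Agr2 ranking, 221 at 10 CPM and 45 at 200 CPM; the 54 of the Mettl14_cKO library became 83 when thinned, 128 at 10 CPM and 19 at 200 CPM.

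Of 1920 log2 ratios of 128 named genes under 15 settings, 12 changed sign, 785 were classed as moved and 1123 as the same. The 12 highest and 12 lowest genes were chosen to keep their sign when thinned and when weighted equally. Their sign under those settings was thus fixed in advance. The Tff3 plus Agr2 ranking, which shares 38 control and 40 Mettl14_cKO members with the rule, gave Best2 0.05, Sval1 0.63, Clca1 1.92 and Scin 0.55. The control cut gave Chgb -1.66, Chga -0.95 and an enteroendocrine median of -0.95. Zg16-low members gave Chgb -2.04, Chga -2.03, an enteroendocrine median of -2.03, Clca1 0.82, Wfdc2 0.29 and Gdf15 -0.92. The 10% mitochondrial limit gave Cd74, and so the class II median, 0.08. The causes were not tested. The settings that keep 1 kind of member or leave out members with other markers were added after the data were seen.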

Other observations

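Genes of the N6-methyladenosine machinery were detected at low to moderate levels in the members. None of 8 writer genes reached 50 CPM, and they summed to 106 CPM in control and 112 CPM in Mettl14_cKO members. Among them Wtap was at 30.6 and 34.0 CPM, Zc3h13 at 15.8 and 15 CPM and Rbm15 at 10.4 and 25.8 CPM, 2.48-fold higher (1.77 to 3.51). Of readers and erasers, Ythdf2 was at 24.1 and 56.0 CPM, 2.32-fold higher (1.86 to 2.91), and Alkbh5 at 71.3 and 55.5 CPM.

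Of 4 p53 targets and apoptosis genes at 50 CPM or more, 1 was higher, where 4.54% of all genes were. This was Gdf15, a stress-induced cytokine, at 31.3 and 96.3 CPM. It was at 24.8 and 133 CPM in Zg16-high members against 39.7 and 20.5 CPM in Zg16-low members. Cdkn1a, the cell cycle inhibitor p21, was at 270 and 146 CPM.

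Markers of deep crypt secretory cells stood apart by kind. Cd24a was at 208 and 323 CPM in Zg16-high and at 1413 and 1182 CPM in Zg16-low members, and Kit at 31.8 and 14.2, and at 95 and 49.5 CPM. Reg4 went the other way in the control, at 951 and 575 CPM in Zg16-high and 70.8 and 291 CPM in Zg16-low members. The control Zg16-low level was near the 56.0 CPM of the shallower T or NK barcodes.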
